A study of Mus musculus with 24 samples.

Results

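The genes described here encode 10 matricellular proteins: Tnc, Postn, Spp1, Thbs1, Thbs2, Thbs3, Thbs4, Ctgf, Cyr61 and Cthrc1. They were picked by symbol from a read count table of 24015 genes, and all 10 were among the 13816 genes that passed the filter on low counts. Cthrc1 passed through its TAC libraries, since it had at least 10 reads in 9 of 12 TAC libraries and 2 of 12 sham libraries. The RNA came from left ventricles of mice, collected 2, 4, 7 or 21 days after transverse aortic constriction (TAC), a surgical narrowing of the aorta that loads the left ventricle with pressure, or after a sham operation. The 8 groups are thus sham and TAC at each of the 4 days, with 3 libraries each and 24 in all. The sources used here name no strain, genotype, sex or age. They do not say whether the 3 libraries of a group are 3 animals, so p-values reflect only the spread among libraries within groups, which may be technical. That spread was estimated jointly over the 8 groups, not from the groups of a single day. Levels are counts per 1000000 reads (CPM), scaled between libraries by the trimmed mean of M-values (TMM). An effect is the log2 of the level in TAC over that in sham, given ± its standard error (SE), so that a value of 1 is a doubling. Adjusted p-values come from the quasi-likelihood test of edgeR, adjusted over the 13816 genes by the method of Benjamini and Hochberg, and a gene was called at an adjusted p under 0.05.

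Matricellular proteins are secreted into the extracellular matrix but, unlike collagens, mainly signal to cells rather than build the scaffold. They bind integrins, proteoglycans, proteases and growth factors, and most are sparse in the resting adult heart and are made again during development, wound healing and pressure overload. In the injured heart fibroblasts are a main source of periostin and tenascin-C, macrophages of osteopontin, and heart muscle cells also make thrombospondin 4 and the CCN proteins. CCN genes are well-known targets of the transcriptional coactivators YAP and TAZ, which act with TEAD factors, and of the TGF-beta pathway.

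The libraries held 10689684 to 17563210 counted reads. Markers of heart muscle cells made up 178231 to 201946 CPM in sham and 122255 to 192955 CPM in TAC libraries when 10 of 10 genes were summed. In 4 libraries Myl7, a myosin light chain of the atrium, was above 30 CPM: sham replicates 2 and 3 of day 2, TAC replicate 1 of day 7 and sham replicate 2 of day 21. The other 20 libraries held 0 to 12.7 CPM. In whole tissue, more cells that express a gene and more RNA of that gene per cell cannot be told apart.

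After TAC 8 of the 10 genes rose on at least 1 day, and none fell. Cthrc1, Tnc, Spp1 and Postn, genes of injured and remodelling matrix, had the 4 largest effects of the set, followed by Thbs4, Thbs1, Ctgf and Thbs3, while Thbs2 and Cyr61 did not pass the test on any day. At day 2 the call was made for 3 of 10 genes (Tnc, Spp1 and Ctgf), against 3.73% of all genes tested that were called higher. At day 4 it was made for 8 of 10 (Tnc, Postn, Spp1, Thbs1, Thbs3, Thbs4, Ctgf and Cthrc1), against 14.4% of all genes. At day 7 it was made for 7 of 10, the same genes as at day 4 without Spp1, against 13.1%. At day 21 edgeR called 0 of 10, against 0.622% of all genes. The unadjusted p was under 0.05 for 6 of the 10 and, in either direction, for 2400 of the 13816 genes tested. DESeq2 called 1 of the 10 (Postn) and voom 0. The median log2 fold change of the 10 genes was 2.03, 3.94, 2.72 and 1.17 at days 2, 4, 7 and 21, beside -0.0023, -0.011, 0.0032 and 0.0099 over all genes tested. The 3 TAC libraries lay above all 3 sham libraries of their day for 4, 8, 7 and 1 of the 10 genes, and for 11.2%, 21.5%, 20.5% and 11.9% of all genes. The share at day 21 was near that of all genes. Without the 4 libraries high in Myl7, edgeR called 9, 2 and 0 of the 10 at days 4, 7 and 21, and at day 7 these were Postn and Cthrc1. At day 2 this left 1 sham library, so that only effects are given. They were 4.91 for Tnc, 7.95 for Spp1 and 2.59 for Ctgf, beside 4.88, 6.39 and 2.43 with all libraries. With all libraries voom called 1, 5, 3 and 0, without Tnc and Spp1 at day 2, Spp1, Thbs4 and Cthrc1 at day 4, and Tnc, Thbs1, Thbs4 and Cthrc1 at day 7. The plots of CPM by library and of effects by day show these values.

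**Figure D1:**
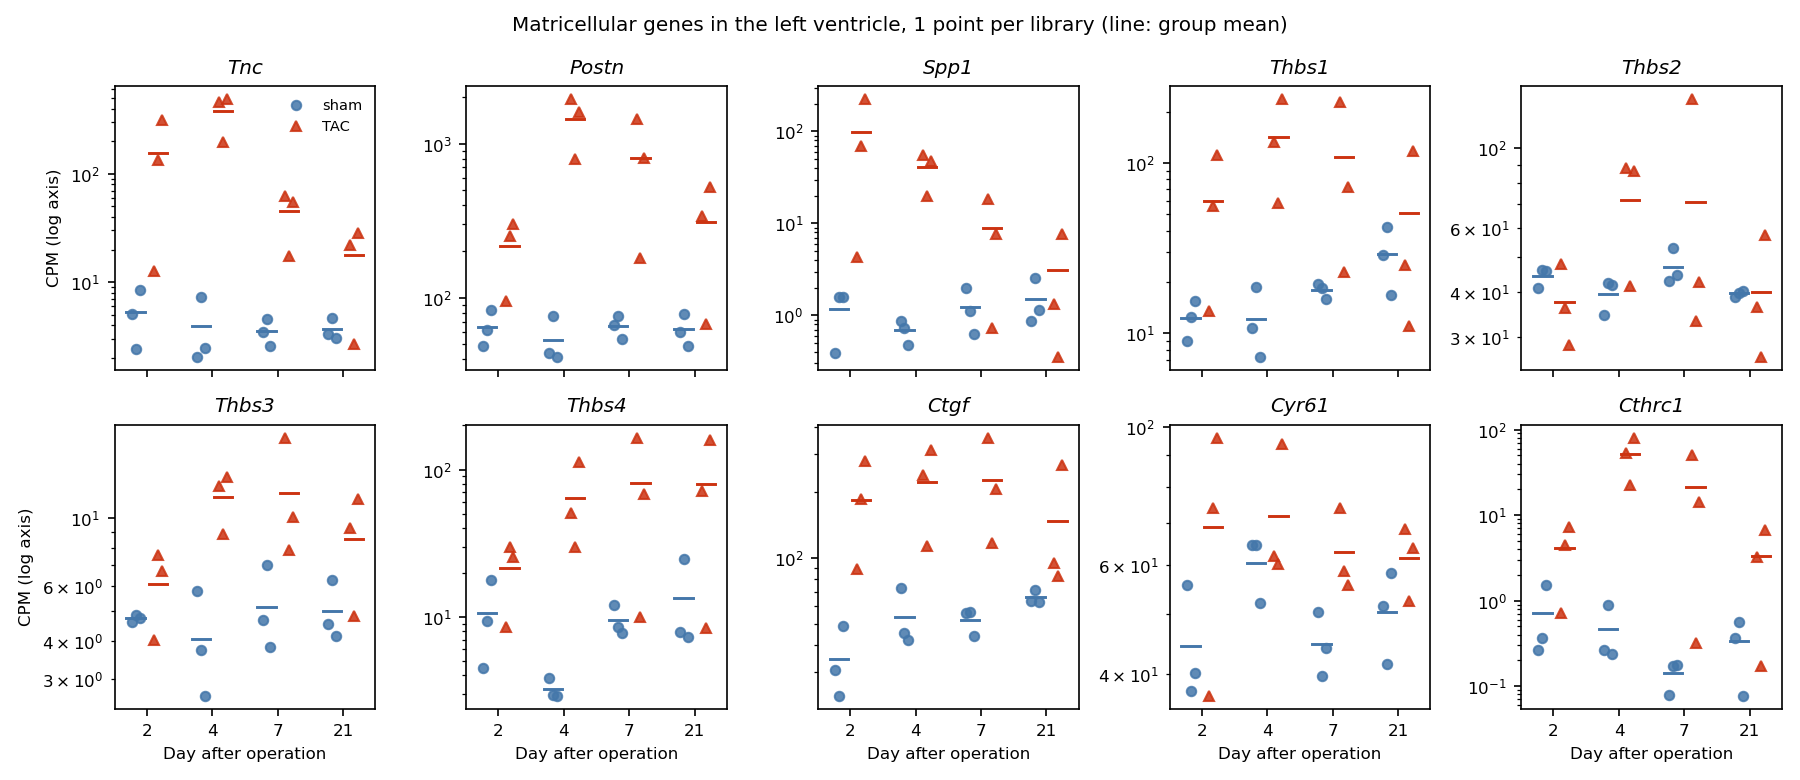
CPM on a log axis (a scale of its own in each panel) of the 10 genes by day, with 1 point per library, circles for sham, triangles for TAC and a line at the mean of each group of 3 libraries. At day 4 the TAC libraries of 8 genes lie above all sham libraries of that day, and at day 21 those of Ctgf do.

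**Figure D2:**
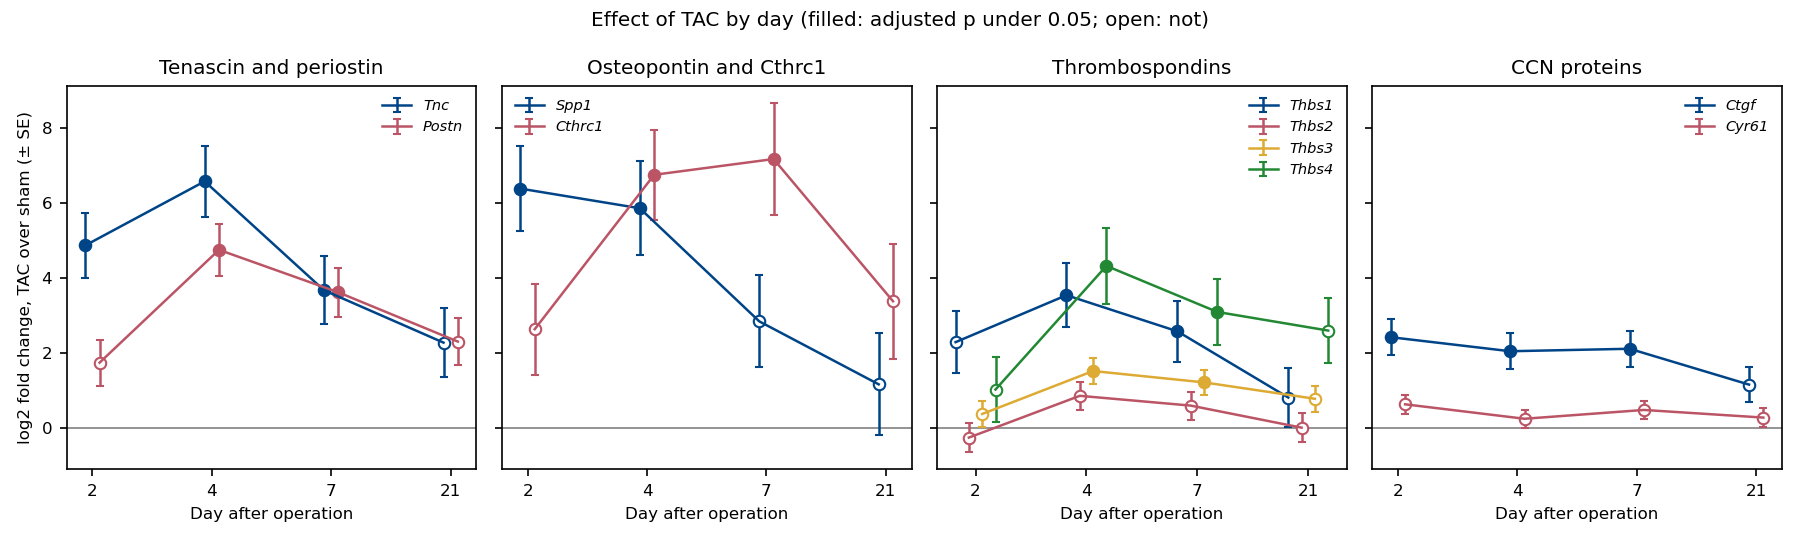
Log2 fold change of TAC over sham by day (days are evenly spaced, not to scale), with bars of 1 SE, filled points where the adjusted p was under 0.05 and open points where it was not. Tnc, Postn, Thbs1, Thbs3 and Thbs4 have their highest value at day 4, Spp1 and Ctgf at day 2 and Cthrc1 at day 7.

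Promoter sequences are given for 5 members, 4 whose RNA changed by a large amount and Cyr61, which did not pass the test. RefSeq starts were found for 7 of the 10 genes (build GRCm38.p6), and not for Thbs1, Ctgf and Cthrc1. Each line holds the 250 bases before the outermost start, 5′ to 3′ on the strand of the gene, and capitals mark matches, on either strand, to the motifs searched. These were the TEAD core GGAATG, AP-1 (TGANTCA), a Smad binding element (CAGACA), the TATA box (TATAAA) and the CArG box of serum response factor, and none of these matches overlapped one of another motif. Tnc lies at chr4:64047016-64047265, - strand, Postn at chr3:54359017-54359266, + strand, Spp1 at chr5:104434861-104435110, + strand, Thbs4 at chr13:92794819-92795068, - strand and Cyr61 at chr3:145649986-145650235, - strand.
Tnc: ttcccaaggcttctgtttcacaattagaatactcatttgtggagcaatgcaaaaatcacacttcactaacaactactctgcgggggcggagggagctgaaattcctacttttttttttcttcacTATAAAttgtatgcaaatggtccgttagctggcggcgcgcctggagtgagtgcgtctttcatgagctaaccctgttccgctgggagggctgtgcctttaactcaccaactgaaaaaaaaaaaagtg
Postn: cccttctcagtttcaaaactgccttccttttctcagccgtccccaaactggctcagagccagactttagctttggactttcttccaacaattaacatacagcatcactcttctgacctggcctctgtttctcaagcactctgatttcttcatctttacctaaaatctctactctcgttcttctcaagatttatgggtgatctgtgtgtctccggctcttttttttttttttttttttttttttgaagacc
Spp1: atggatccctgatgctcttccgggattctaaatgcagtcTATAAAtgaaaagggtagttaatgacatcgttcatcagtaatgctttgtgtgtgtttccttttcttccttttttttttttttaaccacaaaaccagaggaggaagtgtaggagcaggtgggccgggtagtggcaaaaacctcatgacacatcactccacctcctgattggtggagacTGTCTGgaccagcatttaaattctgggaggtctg
Thbs4: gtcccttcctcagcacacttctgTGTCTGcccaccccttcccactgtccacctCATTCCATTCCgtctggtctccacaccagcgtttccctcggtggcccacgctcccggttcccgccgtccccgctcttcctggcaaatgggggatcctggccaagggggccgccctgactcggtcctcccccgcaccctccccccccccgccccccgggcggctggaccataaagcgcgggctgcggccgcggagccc
Cyr61: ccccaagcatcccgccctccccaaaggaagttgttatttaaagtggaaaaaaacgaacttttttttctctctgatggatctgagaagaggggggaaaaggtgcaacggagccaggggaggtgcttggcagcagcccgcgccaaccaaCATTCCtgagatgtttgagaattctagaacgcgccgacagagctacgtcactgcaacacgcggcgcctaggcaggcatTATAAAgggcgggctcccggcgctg

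The TEAD core was found in 2 of the 7 windows, those of Thbs4 and Cyr61, and in 12.6% of 32536 RefSeq windows of the same length. In Cyr61 it stood at positions -103 to -98 from the start, with a TATA box at -25 to -20. In Thbs4 there were 2 overlapping matches, at -197 to -192 and -192 to -187, and a Smad element at -227 to -222. The Smad element occurred in 3 of the 7 windows (Spp1, Thbs2 and Thbs4) and 17% of all, and the TATA box in 4 (Tnc, Spp1, Thbs2 and Cyr61) and 12.3% of all. AP-1 and the CArG box were in none of the 7 and in 6.73% and 1.48% of all. The window of Postn held none of these motifs. A match is a description of the sequence and not a binding site.

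Tnc encodes tenascin-C, a large multi-armed glycoprotein that loosens cell adhesion at sites of injury. At day 2 Tnc stood at 5.13, 2.42 and 8.46 CPM in the sham libraries and 12.7, 134 and 316 CPM in the TAC libraries. TAC replicate 1 was close to the sham hearts, while the other two were far above them. At day 4 the values were 2.02, 7.31 and 2.49 CPM in the sham libraries and 457, 197 and 491 CPM in the TAC libraries. All 3 TAC libraries were then at least 197 CPM, and the highest sham library of that day was at 7.31 CPM. By day 7 Tnc had 3.47, 4.58 and 2.57 CPM in the sham libraries and 62.9, 17.5 and 55.5 CPM in the TAC libraries. By day 21 it had 3.35, 4.70 and 3.06 CPM in the sham libraries and 21.9, 2.70 and 28.6 CPM in the TAC libraries. The groups did not overlap at days 2, 4 and 7, and at day 21 TAC replicate 2 was below all sham libraries. The log2 fold change of Tnc was 4.88 ± 0.87 (adjusted p = 0.00769) at day 2, 6.59 ± 0.94 (adjusted p = 0.000214) at day 4, 3.68 ± 0.91 (adjusted p = 0.00779) at day 7 and 2.29 ± 0.93 (adjusted p = 0.202) at day 21. The call of day 2 was lost without sham replicate 2 or TAC replicate 3 of that day (adjusted p = 0.0557 and 0.0636). Without the libraries over 30 CPM of Myl7 the call of day 7 was lost (adjusted p = 0.0576), and the effect of day 2, with 1 sham library left, was 4.91. The calls of Tnc at days 4 and 7 held without each single library of their day.

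Postn encodes periostin, a secreted protein of activated fibroblasts that binds integrins and helps collagen to crosslink. Its promoter window held none of the motifs searched. Unlike Tnc, it was well expressed in sham hearts, at 40.9 to 82.6 CPM over the 12 sham libraries. At day 2 Postn had 48.7, 61.6 and 82.6 CPM in the sham libraries and 95.4, 253 and 300.4 CPM in the TAC libraries. The groups did not overlap, but the effect of 1.75 ± 0.61 did not pass the test (adjusted p = 0.110), and without TAC replicate 1 it was 2.11 ± 0.63 (adjusted p = 0.0316). At day 4 the libraries held 43.9, 75.7 and 40.9 CPM in the sham libraries and 1950.4, 794 and 1608 CPM in the TAC libraries, an effect of 4.76 ± 0.69 (adjusted p = 0.000226). At day 7 they held 66.4, 76.4 and 53.7 CPM in the sham libraries and 1435, 181 and 808 CPM in the TAC libraries, an effect of 3.63 ± 0.66 (adjusted p = 0.000948). Thus 2 of the 3 TAC libraries stayed at 808 CPM or more, and replicate 2 was the lowest. At day 21 Postn had 59.8, 78.9 and 48.5 CPM in the sham libraries and 339, 67.1 and 523 CPM in the TAC libraries. TAC replicate 2 lay among the sham hearts, and the effect of 2.31 ± 0.63 did not pass edgeR's test (adjusted p = 0.0705). Without that library it was 2.79 ± 0.56 (adjusted p = 0.0118), and DESeq2 gave 2.31 ± 0.66 (adjusted p = 0.0213) with all libraries. The calls of Postn at days 4 and 7 held without each single library of their day.

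Of the cell types that could carry these genes, 10 fibroblast markers summed to 2144 to 2506 CPM in sham and 2149 to 3429.9 CPM in TAC libraries at day 2, 2028 to 2299 and 3988 to 7413 at day 4, 2209.8 to 2629 and 2291 to 8169.8 at day 7, and 2104 to 2646 and 1944 to 4603 at day 21. No fibroblast marker was at 0 in a group. Of these markers 0, 5, 6 and 0 rose at days 2, 4, 7 and 21, among them the collagen Col1a1 at day 4 (3.53 ± 0.58). The median effects over the list were 0.15, 0.58, 0.62 and 0.33. The list includes the collagens Col1a1, Col1a2 and Col3a1, so the sum is not a measure of the number of fibroblasts. Gsn, the actin-severing protein gelsolin, fell at days 4 and 7 (-0.90 ± 0.16 and -0.73 ± 0.16). Tcf21 and Pdgfra, which mark resident fibroblasts, had 0.56 ± 0.23 (adjusted p = 0.0825) and 0.20 ± 0.16 (adjusted p = 0.366) at day 4. At day 7 Tcf21 rose (0.83 ± 0.23, adjusted p = 0.0159), and Pdgfra had 0.15 ± 0.16 (adjusted p = 0.524). The part of the number of fibroblasts in the rise of Tnc, Postn and Cthrc1 was not tested.

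Other marker lists moved on these days too. Over all 13816 genes tested, edgeR called 633, 3394, 3201 and 151 at days 2, 4, 7 and 21. Of those, 515, 1995, 1816 and 86 were higher and the rest lower. Every marker list shares this background. Of 8 genes of dividing cells, such as Mki67 and Top2a, 6, 8, 8 and 0 rose at days 2, 4, 7 and 21, with median effects of 2.32, 3.46, 2.99 and 1.05. Their sum was 36.8 to 39.5 CPM in sham and 212 to 582 CPM in TAC libraries at day 4. Of 8 markers of smooth muscle and pericytes 3, 5, 1 and 0 rose and none fell, with sums of 2176 to 2557 CPM in sham and 3078 to 3836 CPM in TAC libraries at day 4. Of the 10 markers of heart muscle cells none rose and 0, 5, 4 and 0 fell, with median effects of -0.16, -0.50, -0.48 and -0.17. Of 8 endothelial markers 0, 0, 2 and 0 rose and 3, 2, 1 and 0 fell. The part of these cells in the changes of the 10 genes was not tested.

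Spp1 encodes osteopontin, a phosphorylated cytokine of the matrix that macrophages release and that draws and activates other cells through integrins and CD44. It was scarce in sham hearts, at 0.395 to 2.54 CPM and 6 to 27 reads per library. The TAC libraries of day 2 held 4.26, 68.8 and 226 CPM, against 0.395, 1.57 and 1.58 CPM in sham. TAC replicate 3 was thus far above TAC replicate 1, although all 3 exceeded the sham libraries. At day 4 the libraries held 0.879, 0.731 and 0.482 CPM in the sham libraries and 55.2, 20.1 and 47.4 CPM in the TAC libraries, with no overlap. At day 7 they held 1.97, 1.12 and 0.621 CPM in the sham libraries and 18.4, 0.721 and 7.72 CPM in the TAC libraries. At day 21 they held 0.873, 2.54 and 1.15 CPM in the sham libraries and 1.34, 0.349 and 7.73 CPM in the TAC libraries. From day 7 TAC replicate 2 of each day was within or below the sham values. The effect on Spp1 was 6.39 ± 1.13 (adjusted p = 0.00769) at day 2, 5.87 ± 1.26 (adjusted p = 0.00270) at day 4, 2.85 ± 1.23 (adjusted p = 0.0950) at day 7 and 1.17 ± 1.36 (adjusted p = 0.694) at day 21. From the summed reads of a group, the ratio of TAC to sham with its exact 95% interval, which covers counting error only, was 93.6 (71.6 to 125) at day 2 and 2.37 (1.71 to 3.33) at day 21. The call of day 2 was lost without sham replicate 2 or TAC replicate 3 of that day (adjusted p = 0.0527 and 0.0636), and without TAC replicate 2 of day 7 the effect of that day passed (3.37 ± 1.18, adjusted p = 0.0362), as it did in DESeq2 with all libraries (2.85 ± 1.12, adjusted p = 0.0447).

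Markers of macrophages rose at days 2, 4 and 7. Summed over 12 of 12 markers found in the table, with none at 0 in a group, they were at 241 to 339 CPM in sham and 328 to 612 CPM in TAC libraries at day 2, 257 to 293 and 609.9 to 831 at day 4, 258 to 275 and 335 to 534 at day 7, and 218 to 231 and 245 to 349.6 at day 21. At days 2, 4, 7 and 21, 6, 12, 10 and 0 of the 12 rose. Gpnmb and Trem2, surface proteins of macrophages that take up debris, had 2.47 ± 0.63 (adjusted p = 0.00800) and 2.92 ± 0.50 (adjusted p = 0.000625) at day 4. The median effect over the list was 0.89, 1.57, 0.90 and 0.54 at days 2, 4, 7 and 21. How much of the rise of Spp1 goes with the number of macrophages was not tested.

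Cthrc1 encodes a small secreted protein with a collagen triple helix repeat, made by matrix-producing fibroblasts and linked to Wnt signalling through the receptor Ror2. It was nearly absent from sham hearts, with 1 to 21 reads per library (0.0765 to 1.50 CPM). In TAC hearts it was at 0.724, 4.51 and 7.29 CPM at day 2, 52.6, 22.2 and 80.5 CPM at day 4, 49.8, 0.321 and 14.4 CPM at day 7 and 3.21, 0.174 and 6.70 CPM at day 21. All 3 TAC libraries of day 4 and 2 of day 7 were far above the sham range, and TAC replicate 2 of days 7 and 21 was within it, although at day 7 it was above the sham libraries of its day. At day 7 that library had 4 reads of Cthrc1, and the sham libraries of the day had 1, 2 and 2. The effect was 2.64 ± 1.21 (adjusted p = 0.223) at day 2, 6.76 ± 1.21 (adjusted p = 0.000808) at day 4, 7.18 ± 1.48 (adjusted p = 0.00242) at day 7 and 3.39 ± 1.53 (adjusted p = 0.257) at day 21. With so few reads in sham the fitted values depend on edgeR's prior count. The ratio of summed reads, TAC over sham, with its exact 95% interval of counting error was 6.72 (4.60 to 10.1), 116 (72.1 to 199), 167 (71.2 to 514) and 11.1 (6.14 to 22.0) at days 2, 4, 7 and 21. The calls of Cthrc1 at days 4 and 7 held without each single library of their day. In voom neither was made (adjusted p = 0.0790 and 0.299).

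The thrombospondins fall into subgroup A, the trimers Thbs1 and Thbs2, which inhibit blood vessel growth, and subgroup B, the pentamers Thbs3 and Thbs4. Thbs1, which also activates latent TGF-beta and binds CD47 and CD36, had 9.02, 12.5 and 15.5 CPM in the sham libraries and 13.5, 55.8 and 111 CPM in the TAC libraries at day 2. At day 4 Thbs1 was at 10.8, 18.6 and 7.22 CPM in the sham libraries and 133, 58.5 and 238 CPM in the TAC libraries. At day 7 it was at 19.5, 18.5 and 15.9 CPM in the sham libraries and 228, 23.1 and 72.4 CPM in the TAC libraries. The groups did not overlap at days 4 and 7. Its effect was 2.30 ± 0.82 (adjusted p = 0.118) at day 2, 3.55 ± 0.86 (adjusted p = 0.00583) at day 4, 2.59 ± 0.82 (adjusted p = 0.0282) at day 7 and 0.82 ± 0.78 (adjusted p = 0.620) at day 21. At day 21 the TAC libraries held 25.2, 11.0 and 117 CPM and the sham libraries 28.9, 42.1 and 16.9 CPM, so that only TAC replicate 3 stood out. Without TAC replicate 3 the day 21 value turned to -0.69 ± 0.81 (adjusted p = 0.763). The call of day 7 was lost without any single sham library of that day (adjusted p = 0.0744, 0.0754 and 0.0934) and without TAC replicate 1 (1.42 ± 0.79, adjusted p = 0.266). Without TAC replicate 1 of day 2 the effect of that day passed (2.76 ± 0.80, adjusted p = 0.0278).

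Thbs2, the other member of subgroup A, was well expressed in every sham heart (34.5 to 52.9 CPM) with a narrow spread. Its effects were -0.25 ± 0.38 (adjusted p = 0.768) at day 2, 0.87 ± 0.38 (adjusted p = 0.0952) at day 4, 0.61 ± 0.37 (adjusted p = 0.242) at day 7 and 0.019 ± 0.38 (adjusted p = 0.986) at day 21. The 3 TAC libraries of day 7 held 137, 33.2 and 42.6 CPM, of which 1 was above the 3 sham libraries (42.9, 52.9 and 44.4 CPM) and the other two below. Without that highest library, TAC replicate 1, the value turned to -0.30 ± 0.28 (adjusted p = 0.532), and without replicate 2 it passed (0.95 ± 0.35, adjusted p = 0.0489). At day 4 TAC held 88.1, 41.6 and 86.6 CPM and sham 34.5, 42.4 and 41.8 CPM. The effect of that day passed without TAC replicate 2 (1.14 ± 0.38, adjusted p = 0.0312). At day 2 the order of the TAC libraries was the reverse of that of most members, with 47.8, 36.2 and 28.5 CPM in replicates 1, 2 and 3.

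Thbs3 was at 2.65 to 7.00 CPM in sham hearts. At day 4 its libraries held 5.80, 3.74 and 2.65 CPM in the sham libraries and 12.6, 8.83 and 13.5 CPM in the TAC libraries, and at day 7 they held 4.66, 7.00 and 3.81 CPM in the sham libraries and 18.1, 7.85 and 10.1 CPM in the TAC libraries. The groups were apart on both days. The effect was 0.38 ± 0.35 (adjusted p = 0.576) at day 2, 1.53 ± 0.35 (adjusted p = 0.00412) at day 4, 1.23 ± 0.34 (adjusted p = 0.0154) at day 7 and 0.79 ± 0.35 (adjusted p = 0.247) at day 21. The call of day 7 was lost without sham replicate 1 or 3 (adjusted p = 0.0567 and 0.0766) and without TAC replicate 1 (0.80 ± 0.34, adjusted p = 0.142). In the GENCODE annotation an exon of Thbs3 overlaps one of Mtx1 on the opposite strand, and the sources used here do not say whether counting used the strand. Exons of Tnc, Thbs1 and Ctgf also overlap gene models that have no name, on the opposite strand. Those of Spp1 overlap such a model on the same strand. Reads of these 5 genes could thus be shared.

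Thbs4 is found in tendon and in the stressed heart and supports protein folding in the endoplasmic reticulum, and its promoter window held overlapping matches to the TEAD core. It had 4.48, 9.38 and 17.9 CPM in the sham libraries and 8.52, 29.8 and 25.6 CPM in the TAC libraries at day 2. At day 4 it had 3.87, 2.92 and 2.89 CPM in the sham libraries and 51.1, 29.9 and 113 CPM in the TAC libraries, and the groups were far apart. At day 7 it was at 12.1, 8.56 and 7.72 CPM in the sham libraries and 165, 9.94 and 68.5 CPM in the TAC libraries. At day 21 it was at 7.93, 24.9 and 7.34 CPM in the sham libraries and 71.6, 8.37 and 159 CPM in the TAC libraries. At days 7 and 21 TAC replicates 1 and 3 were above every sham library of the day, while replicate 2 was among them. The effect was 1.04 ± 0.86 (adjusted p = 0.537) at day 2, 4.33 ± 1.01 (adjusted p = 0.00445) at day 4, 3.10 ± 0.89 (adjusted p = 0.0173) at day 7 and 2.61 ± 0.86 (adjusted p = 0.128) at day 21. Without TAC replicate 2 the effect of day 21 passed (3.14 ± 0.78, adjusted p = 0.0307). The call of day 7 was lost without sham replicate 2 or 3 (adjusted p = 0.0585 and 0.0688) and without TAC replicate 1 (2.06 ± 0.87, adjusted p = 0.139).

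Among the sham hearts Thbs4 was at 9.38 to 24.9 CPM in the 3 libraries with over 30 CPM of Myl7 and at 2.89 to 12.1 CPM in the other 9. The TAC library with high Myl7, replicate 1 of day 7, held the highest Thbs4 of all 24. Among the 3 TAC libraries of day 7, that library was the highest for 10 of the 10 genes. TAC replicate 3 of day 21 held 159 CPM of Thbs4 with 6.04 CPM of Myl7. Markers of tendon and cartilage, 9 of 9 in the table, summed to 26.6 to 186 CPM over the sham and 35.8 to 477 CPM over the TAC libraries. Of the 8 that could be tested, 2 rose at day 4, Sox9 (2.53 ± 0.44) and Acan (4.73 ± 1.29), and 2 at day 7, Sox9 (1.75 ± 0.42, adjusted p = 0.00672) and Col2a1 (5.27 ± 1.55, adjusted p = 0.0219). At day 7 the sum was 58.8 to 99.9 CPM in sham and 37.7 to 477 CPM in TAC libraries. Tnmd and Matn3 were at 0 in the sham hearts of day 4. Matn3 was also at 0 in the sham hearts of day 7 and in the sham and TAC hearts of day 21. Col2a1 was at 0 in the sham hearts of day 21. The part of atrial or tendon-like tissue in the values of Thbs4 was not tested. Without the 4 libraries high in Myl7, none of which is from day 4, the effect on Thbs4 was 2.06 ± 0.86 (adjusted p = 0.161) at day 7 and 3.38 ± 0.97 (adjusted p = 0.159) at day 21. At day 2, where a single sham library was left, it was 2.27.

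Ctgf and Cyr61, now named Ccn2 and Ccn1, encode CCN proteins, which bind integrins and growth factors and respond quickly to stretch and to TGF-beta. Ctgf was at 30.7, 23.2 and 48.9 CPM in the sham libraries and 88.6, 187 and 277 CPM in the TAC libraries at day 2. At day 4 it was at 72.9, 45.5 and 42.1 CPM in the sham libraries and 241, 113 and 313 CPM in the TAC libraries. On both days every TAC library was above every sham library. At day 7 it had 56.2, 56.5 and 43.6 CPM in the sham libraries and 356, 117 and 207 CPM in the TAC libraries. At day 21 it had 63.4, 71.5 and 62.9 CPM in the sham libraries and 94.8, 82.6 and 266 CPM in the TAC libraries. Ctgf was the only one of the 10 genes whose 3 TAC libraries were above the 3 sham libraries on each of the 4 days, and each of its 12 TAC libraries was above all 12 sham libraries. Its effect was 2.43 ± 0.48 (adjusted p = 0.0101) at day 2, 2.06 ± 0.48 (adjusted p = 0.00439) at day 4, 2.12 ± 0.48 (adjusted p = 0.00435) at day 7 and 1.17 ± 0.47 (adjusted p = 0.196) at day 21. The call of day 2 was lost without sham replicate 1 or 2 or TAC replicate 3 of that day (adjusted p = 0.0535, 0.0700 and 0.105). Those of days 4 and 7 held without each single library of their day.

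Cyr61 and Ctgf had like read levels in sham hearts (37.6 to 64.6 CPM for Cyr61 and 23.2 to 72.9 CPM for Ctgf), but the effects on Cyr61 were 0.64 ± 0.25 (adjusted p = 0.142) at day 2, 0.26 ± 0.24 (adjusted p = 0.470) at day 4, 0.49 ± 0.25 (adjusted p = 0.153) at day 7 and 0.29 ± 0.25 (adjusted p = 0.576) at day 21. At day 2 Cyr61, whose promoter window held the TEAD core, was at 55.6, 37.6 and 40.1 CPM in the sham libraries and 36.8, 74.1 and 96.1 CPM in the TAC libraries. TAC replicate 1 was below every sham library of the day, and without it the effect passed (0.94 ± 0.20, adjusted p = 0.00452). At day 7 it had 50.3, 39.7 and 44.1 CPM in the sham libraries and 74.1, 58.6 and 55.6 CPM in the TAC libraries. The groups did not overlap, and with the 6 libraries of that day alone the effect was 0.51 ± 0.14 (adjusted p = 0.0369). At days 4 and 21 the groups overlapped, with 61.9, 60.1 and 94.0 and 68.5, 52.4 and 63.8 CPM in TAC and 64.6, 64.6 and 52.0 and 51.4, 41.5 and 58.3 CPM in sham.

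To compare levels between genes, the authors' RPKM (reads per kilobase and 1000000 reads) was used, since it divides by gene length. In sham hearts 3 genes led on each day. Cyr61, Ctgf and Postn were at 24.6 ± 2.90, 23.2 ± 3.22 and 20.1 ± 3.54 RPKM (SD, n = 3) in the sham hearts of day 7. Their order changed between days: Ctgf was the lowest of the 3 at day 2 (15.4 ± 5.59) and beside Cyr61 (27.1 ± 4.97) the highest at day 21 (28.7 ± 2.45), and at day 4 Cyr61 (33.2 ± 3.63) was above Postn (16.0 ± 5.41) by more than their spread. Thbs2 came next on each day (7.91 ± 0.989 RPKM at day 7), and Thbs1, Thbs3 and Thbs4 followed at 3.05 ± 0.366, 1.84 ± 0.561 and 3.19 ± 0.776 RPKM. Spp1, Tnc and Cthrc1 held the last places on each day (0.957 ± 0.539, 0.511 ± 0.141 and 0.179 ± 0.0945 RPKM at day 7). In TAC hearts of day 2 Ctgf, Spp1 and Postn were at 80.2 ± 40.4, 75.6 ± 86.8 and 65.0 ± 32.7 RPKM, which do not differ beyond their spread. At day 4 Postn reached 429 ± 169.8 RPKM, 50.1% to 61.8% of the summed RPKM of the 10 genes, ahead of Ctgf (94.7 ± 43.5), Tnc (55.1 ± 23.5) and Cthrc1 (52.8 ± 30.4), which overlap in their spread. In the sham hearts of day 4 Postn was 15.0% to 23.8% of that sum. At day 21 Postn (91.4 ± 65.7) and Ctgf (62.9 ± 41.2) led again, while Spp1, Tnc and Cthrc1 were at 2.35 ± 2.99, 2.53 ± 1.95 and 3.36 ± 3.21 RPKM. The summed RPKM of the 10 genes was 70.0 to 92.7 in the sham and 418 to 953 in the TAC libraries of day 4, and 88.3 to 106 and 97.4 to 401 at day 21.

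**Figure D3:**
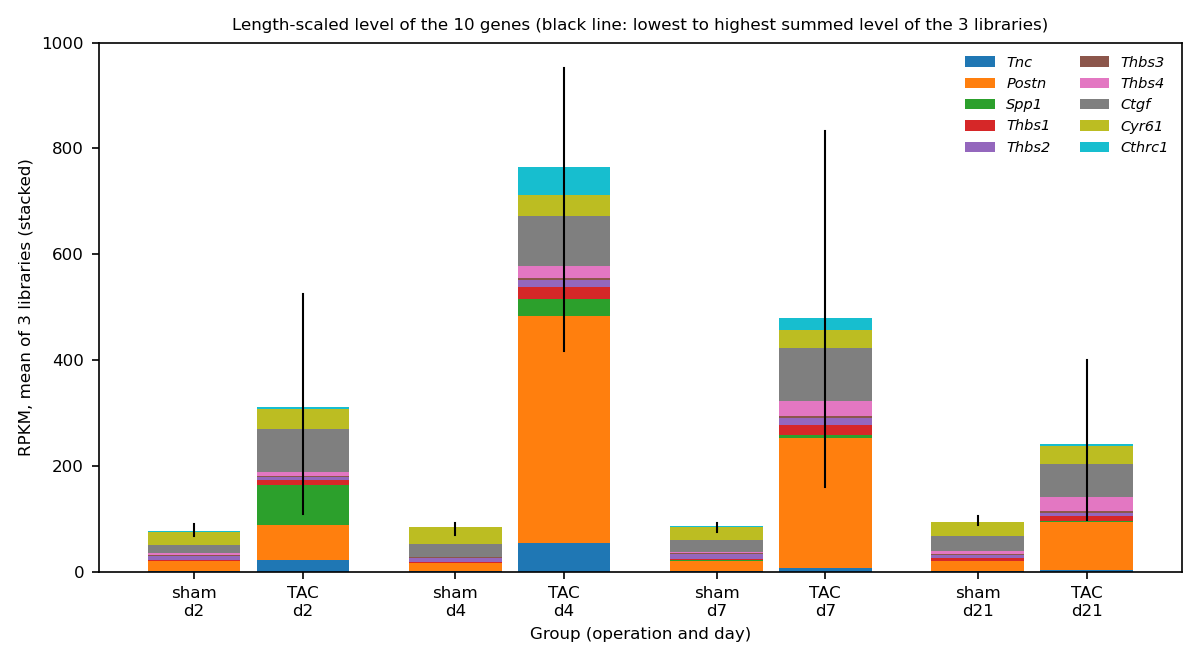
RPKM of the 10 genes, stacked as means of 3 libraries for each group of operation and day on a linear axis from 0, with a black line from the lowest to the highest summed RPKM of the 3 libraries. Postn takes the largest share of the TAC bars of days 4, 7 and 21, and Spp1 makes up 75.6 of 312 RPKM in the TAC bar of day 2, where its share was 2.93% to 32.7% over the 3 libraries.

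The TAC libraries of a day differed widely, and mostly in the same order for the 10 genes. At day 2 TAC replicate 1 was the lowest of the 3 for 9 of 10 genes, all but Thbs2. At day 4 replicate 2 was the lowest for 10 of 10, at day 7 replicate 2 for 9 of 10 (Cyr61 was lowest in replicate 3), and at day 21 replicate 2 for 10 of 10. At day 21 that library exceeded all sham libraries of its day for 1 of the 10 genes, Ctgf, whereas replicates 1 and 3 did so for 7 and 10. These orders were counted for the 10 genes only, so they cannot be called particular to them. The 10 values of a library come from the same RNA and are not separate replicates. Summed over the 10 genes the TAC libraries of day 21 held 671, 256 and 1241 CPM. The map of TAC libraries against the sham mean shows the order gene by gene. In TAC replicate 2 of day 7, Nppa, the natriuretic peptide that marks wall stress, was at 853 CPM, between 172 CPM in the highest sham library of that day and 1262 CPM in the lower of the other two TAC libraries. In TAC replicate 2 of day 21 it was at 678 CPM, where the sham libraries held up to 269.7 CPM and the other two TAC libraries 2111 and 3407 CPM. No measure of the degree of constriction was used here.

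**Figure D4:**
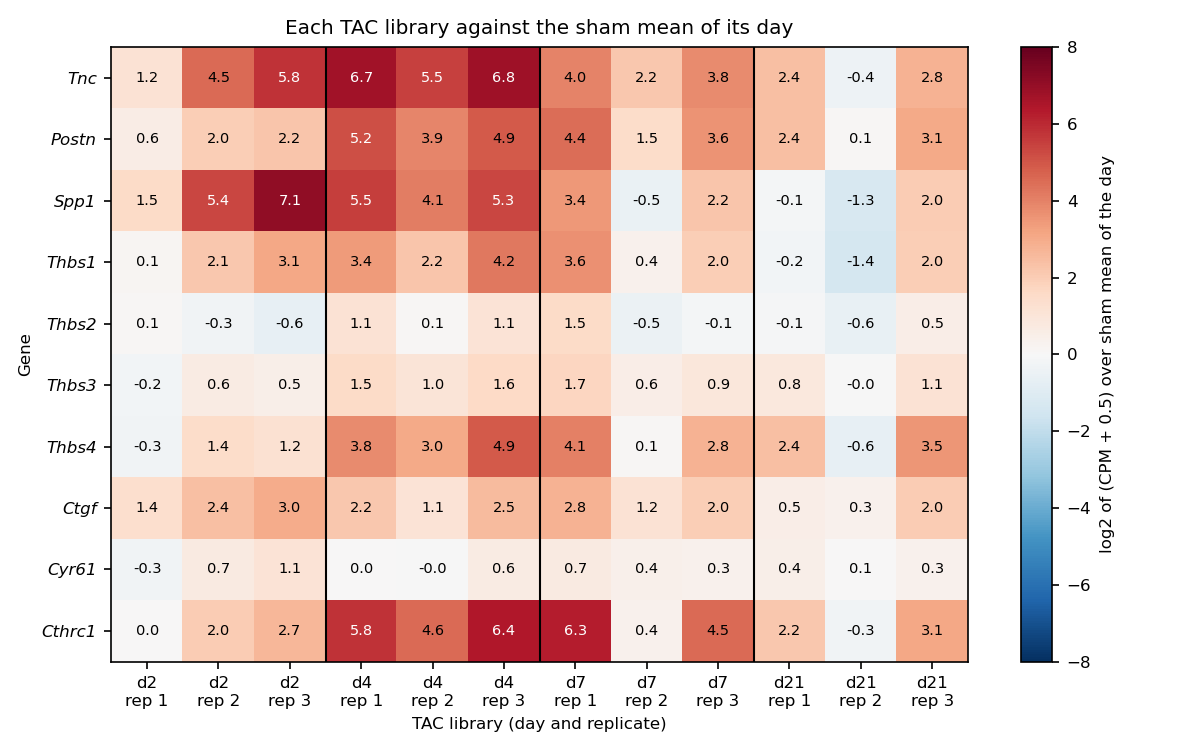
Log2 ratio of each TAC library (columns, by day and replicate) to the mean of the 3 sham libraries of its day, from CPM + 0.5, for the 10 genes (rows), with the value in each cell. Replicate 1 of day 2 and replicates 2 of days 7 and 21 are pale in most rows, and the 3 libraries of day 4 are dark for Tnc, Postn, Spp1 and Cthrc1.

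The spread within groups was larger after TAC than after sham for all 10 genes. As a pooled standard deviation (SD) of log2 CPM over the 4 days, Thbs2 had 0.125 in sham and 0.711 in TAC hearts, the largest ratio of the 10 (5.67). Cthrc1 and Spp1 had the widest TAC spread, 2.30 and 2.14, against 0.815 and 0.730 in sham. The ratio was lowest for Thbs3 (1.38) and Cyr61 (1.85). Over all genes tested the median SD was 0.149 in sham and 0.218 in TAC hearts, with a median ratio of 1.37. In the TAC hearts 99.9% of all genes had a lower SD than Cthrc1, and 81.9% a lower one than Cyr61. These are descriptions with no test.

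**Figure D5:**
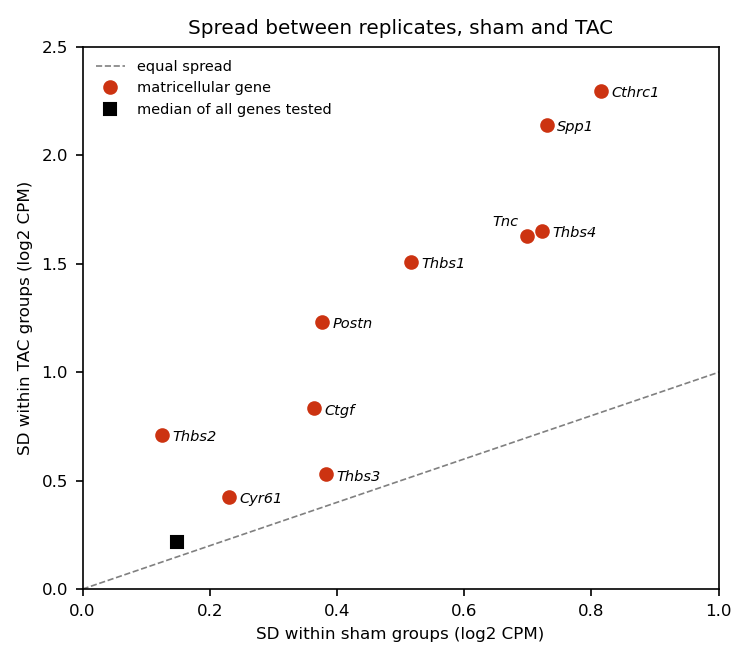
Pooled SD of log2 CPM within the 4 TAC groups (vertical axis) against that within the 4 sham groups (horizontal axis, drawn to another scale), for the 10 genes and the median of all genes tested, with a dashed line where both are equal. All 10 genes lie above the line.

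Whether the effect of TAC differed between days was tested directly. For day 4 minus day 2, edgeR called 0 of the 10 genes and 0% of all genes. The unadjusted p was under 0.05 for 1215 of the 13816 genes tested and for 4 of the 10. The largest of the 4 were Thbs4 (3.30 ± 1.32, adjusted p = 0.514) and Postn (3.01 ± 0.86, adjusted p = 0.327). For day 7 minus day 4 it called 0 of 10 and 0.0507% of all genes. The unadjusted p was under 0.05 for 1051 of all genes tested and for 1 of the 10, Tnc (-2.91 ± 1.32, adjusted p = 0.626). For day 21 minus day 7 it called 0 of 10 and 0.0651% of all genes. The unadjusted p was under 0.05 for 1574 of all genes tested and for 0 of the 10, although the difference was negative for all 10 (median -1.13). Over all days at once it called 0 of 10 and 0.369% of all genes, with 3 of the 10 (Tnc, Postn and Spp1) at an unadjusted p under 0.05. The share of all genes at that unadjusted p is not given for this test. DESeq2 and voom also called 0 of the 10 in each of these comparisons. The changes of the effect from day 2 to 4, from day 4 to 7 and from day 7 to 21 thus did not pass a test of the differences. The difference between day 4 and day 21 had no test of its own.

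In sham hearts the 10 genes were not called between days (0 of 10, against 0.68% of all genes; 0 of 10 at an unadjusted p under 0.05, and 0 of 10 by DESeq2 and voom). The smallest p was that of Cyr61 (adjusted p = 0.816), which had 60.4 ± 7.26 CPM at day 4 and 44.4 ± 9.73 CPM at day 2 (SD, n = 3). Ctgf had 30.7, 23.2 and 48.9 CPM in the sham hearts of day 2 and 63.4, 71.5 and 62.9 CPM in those of day 21, which did not overlap. No heart without an operation was among the samples analysed here.

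Other matricellular genes, from a list of 21 of which 15 could be tested, had smaller median effects than the 10. At days 2, 4, 7 and 21, 2, 6, 6 and 1 rose and 0, 1, 0 and 0 fell, with medians of 0.37, 1.06, 1.06 and 0.41. Over all genes tested, 3.73%, 14.4%, 13.1% and 0.622% were called higher on these days. Sparc, a collagen-binding glycoprotein, rose at day 4 (1.80 ± 0.27, adjusted p = 0.000262) and day 7 (1.58 ± 0.27). At day 21 Sparc was called (1.14 ± 0.26, adjusted p = 0.0400), where 0 of the 10 were, but that call was lost without 5 of the 6 libraries of the day taken singly. Wisp1, a CCN protein that acts downstream of Wnt, rose at day 4 (3.84 ± 0.80) and Lgals3, the lectin galectin-3 of macrophages, at day 2 (3.13 ± 0.56) and day 4 (2.96 ± 0.54). Smoc1, a calcium-binding matrix protein, fell at day 4 (-0.86 ± 0.30, adjusted p = 0.0402), a call lost without each library of that day. Tgfbi, which binds collagen and integrins, was called at days 2 and 4 (1.55 ± 0.36 and 1.14 ± 0.37), and both calls were lost without TAC replicate 3 of the day (adjusted p = 0.259 and 0.181) and without any of its sham libraries. The day 2 call of Lgals3 was lost without sham replicate 2 or TAC replicate 3 of that day (adjusted p = 0.0531 and 0.0785).

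Of 28 receptors and binding partners, all testable, 4, 14, 10 and 0 rose and 0, 1, 2 and 0 fell at days 2, 4, 7 and 21, with medians of 0.26, 0.60, 0.53 and 0.19. Over all 13816 genes tested, 3.73%, 14.4%, 13.1% and 0.622% were called higher at days 2, 4, 7 and 21. At day 7, 3201 were called, of which 1816 were higher and the rest lower. This background holds for the upstream factors and proteases below as well. Among the integrin subunits Itgb1, the shared beta subunit, rose at day 4 (0.61 ± 0.12), as did Itga5 (0.93 ± 0.21), Itga9, a receptor of tenascin-C and osteopontin (0.84 ± 0.17), Itga4 (1.12 ± 0.22) and Itgam of myeloid cells (1.71 ± 0.31). Cd44, which binds osteopontin and hyaluronan, rose at day 4 (1.38 ± 0.34), a call lost without TAC replicate 3 of that day (adjusted p = 0.0551). Cd36, which binds thrombospondins and takes up fatty acids in heart muscle, went against the list and fell at day 7 (-0.65 ± 0.15, adjusted p = 0.00472). Scarb2, a related protein of lysosomes, fell too at day 7 (-0.31 ± 0.069, adjusted p = 0.00435).

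Of 28 upstream factors, all testable, 1, 10, 9 and 0 rose and 0, 0, 2 and 0 fell at these days, with medians of 0.088, 0.098, 0.28 and 0.15. The ligands Tgfb1 and Tgfb3 rose at day 4 (0.61 ± 0.14 and 1.63 ± 0.36), as did Tgfb2 (1.58 ± 0.39, not called without TAC replicate 3 of that day, adjusted p = 0.0521), the transcription factor Runx1 (2.38 ± 0.48) and Bmp1, a protease that trims matrix proteins (1.02 ± 0.18). Yap1 and Wwtr1 (TAZ) had -0.12 ± 0.071 (adjusted p = 0.237) and 0.15 ± 0.11 (adjusted p = 0.298) at day 4. At day 7 Wwtr1 rose (0.39 ± 0.11, adjusted p = 0.0126), and Yap1 had -0.13 ± 0.071 (adjusted p = 0.179). RNA levels say nothing of the proteins' place in the cell. Scx, a factor of tendon and fibroblasts, rose at day 7 (1.46 ± 0.38, adjusted p = 0.0103), a call lost without TAC replicate 1 of that day (adjusted p = 0.0953). Mkl2, a coactivator of serum response factor, and Smad4, the shared Smad of TGF-beta and BMP signalling, fell at day 7 (-0.23 ± 0.072 and -0.24 ± 0.081), calls lost without 4 and 5 of the 6 libraries of that day. Of 13 proteases that process these proteins, 11 could be tested, and 1, 5, 5 and 0 rose and 0, 0, 0 and 0 fell. Bmp1 is in this list and among the upstream factors, and its calls at days 4 and 7 are counted in both. Mmp14, a protease of the cell surface, rose at day 4 (1.81 ± 0.34) and day 7 (1.69 ± 0.35), and Plat, the tissue plasminogen activator, rose likewise (0.84 ± 0.16 and 1.03 ± 0.16).

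For each member the 3 genes with the most alike effects over the 4 days were found among genes of average log2 CPM 3 or higher, by the root mean square difference of the 4 log2 fold changes. These values come from the same 24 libraries and carry no test. The nearest to Postn were Lox, the enzyme that crosslinks collagen, and the matrix genes Col12a1 and Ltbp2, at 0.407, 0.437 and 0.541 log2 units. For Thbs4 it was Cilp, a fibroblast protein, at 0.268, then Ltbp2 and Col8a1, and for Thbs1 Mki67, a marker of dividing cells, and Fn1, fibronectin, at 0.297 and 0.319, then Wisp1. Ctgf was nearest to Aldh1a2 (0.383), the enzyme that makes retinoic acid, and to Nppb (0.487), the B-type natriuretic peptide. The next was Ccr2, a chemokine receptor of monocytes. Thbs3 was nearest to Emr1 (0.110), a macrophage receptor, then Igsf10 and the collagen Col6a2. Thbs2 was nearest to Lacc1 (0.115), Ddx58 and Kctd12, and Cyr61 to Arhgdia (0.0952), Gas8 and Rangap1. Tnc, Spp1 and Cthrc1 had no gene outside the set within 1 log2 unit, and the nearest were Timp1, an inhibitor of matrix proteases, at 1.16 from Tnc and 1.64 from Spp1, and Sprr1a at 1.80 from Cthrc1. Col12a1 and Lox followed for both Tnc and Cthrc1, and Myh7 and Top2a for Spp1. Within the set Postn and Thbs4 were 0.514 apart and Tnc and Spp1 1.09.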

How the data were processed

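Libraries of left ventricular RNA were prepared with a NuGEN Ovation kit and sequenced on an Illumina NextSeq500, per the labels' protocols. The deposited files are raw counts by gene symbol (24015 genes) and RPKM made by the authors (23951 genes, all 10 members). TopHat, DESeq and the build hg19 are named in the submitters' processing notes without versions. As hg19 is a human build, the one used for these mouse reads, the annotation and the counter remain unknown here. The deposited counts are whole numbers that sum to 10689684 to 17563210 per library.

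In R 4.3.3, edgeR 4.0.16 kept 13816 genes (filterByExpr by group), scaled libraries by TMM and fitted 8 group means with 16 residual degrees of freedom (glmQLFit, glmQLFTest, two-sided). The SE is the log2 fold change divided by the square root of F. Replicates differed beyond counting noise in each group (chi-square per degree of freedom of 3.52 to 58.9). Alternatives were RLE scaling, no filter or a stricter filter, DESeq2 1.42.0, voom of limma 3.58.1, the RPKM in limma with a pseudocount of 0.1 or 1, only the libraries of a day, a replicate block, leaving out each library and, chosen after seeing the data, leaving out 4 libraries over 30 CPM of Myl7. The model was tested on simulated counts. The members, lists, motifs and rules were chosen with earlier results of these data known. All 10 members are named, and of other lists up to 6 genes per list called on at least 2 days with the smallest p over the 4 effects, and those called against their list. For each member the 3 genes with the nearest effects are named. A few marker genes (Myl7, Nppa, Col1a1, Gsn, Tcf21, Pdgfra, Gpnmb, Trem2, Sox9, Acan, Col2a1, Mki67, Top2a, Yap1 and Wwtr1) fall outside that rule and were chosen after their values were seen.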

Additional observations from a re-analysis of the deposited data

How the results depend on the processing

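Of the 18 calls of members (3, 8, 7 and 0 at days 2, 4, 7 and 21), 12 held without each single library of their day. Under all alternatives 6 held: Tnc, Postn, Thbs1, Thbs3 and Ctgf at day 4 and Postn at day 7. Fits without a library of another day were not scored for these calls. RLE scaling, no filter and a stricter filter changed none of them. Voom called 1, 5 and 3 members at days 2, 4 and 7. On RPKM 5 were called at day 7, with Thbs1 and Thbs4 lost under both pseudocounts (limma's adjusted p = 0.0936 and 0.0926 with a pseudocount of 1), and Tnc was lost at day 2 with a pseudocount of 1 (adjusted p = 0.0507). With only the libraries of day 2, edgeR called 0 at that day, and with only those of day 7 Cthrc1 did not pass the filter and has no value. DESeq2 called 1 at day 21. Without the 4 libraries over 30 CPM of Myl7 edgeR called 2 at day 7. At day 2 this left 1 sham library, which was assumed to vary like the other groups, so that no count is given for that day. Without 1 library of the day at a time the counts ranged from 0 to 6 at day 2, 8 to 9 at day 4, 4 to 9 at day 7 and 0 to 2 at day 21. The lows came without sham replicate 2 or TAC replicate 3 at day 2 and without sham replicate 3 or TAC replicate 1 at day 7, and the highs without TAC replicate 1 at day 2 and without TAC replicate 2 at days 4, 7 and 21. The count of 0 for differences between days and for sham hearts was the same under all alternatives. Values not called changed sign in 8 instances. Over the fits without 1 library of the day, Spp1 at day 21 ranged from -0.79 to 1.70 and Thbs1 from -0.69 to 1.30. Thbs2 ranged from -0.30 to 0.95 at day 7 and from -0.34 to 0.25 at day 21. The 3 negative values of day 21 came without TAC replicate 3, and that of day 7 without TAC replicate 1. Thbs2 was also -0.30 at day 7 without the high-Myl7 libraries, and at day 21 -0.045 in voom and -0.066 and -0.051 on RPKM with a pseudocount of 0.1 and 1. Of 47 calls of other named genes, 21 held without each single library of their day. The cause of these changes was not tested.

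Sham and TAC libraries share replicate numbers, which the labels do not tie to a litter or batch. Deviations from group means of same-numbered libraries correlated at -0.151 to 0.141 over genes, above 0.1 in 1 of 12 pairs, and 3 of 12 sham libraries correlated best with their own number, so that the numbers were not taken to pair samples. With the replicate block the counts were 3, 8, 7 and 0 at days 2, 4, 7 and 21.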
